A study of Mus musculus with 27 samples.

Results

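IgG was used as the control antibody of a ribonucleoprotein immunoprecipitation (RIP), and the RNA it left on the beads was compared here with the total RNA of the same kind of cells. The comparison uses 15 of the 27 libraries of the series, chosen by their labels: 3 control IgG libraries and 12 total RNA libraries. The cells were RAW264.7, a mouse macrophage-like line that answers bacterial lipopolysaccharide (LPS) with inflammatory gene expression. They were treated for 6 h in 3 ways: with the vehicle DMSO, with 1 ug/ml LPS and DMSO, or with the same LPS and 10 uM TM7nox, one of the tanshinone mimics of the study, whose title names modulation of the RNA-binding protein HuR. Total RNA was sequenced in 4 libraries per treatment and IgG RNA in 1 per treatment, and all 3 IgG libraries carry the replicate number 3. All groups are the same cell line with no genetic change given in the labels, and each sample was taken from 30 M (mega) cells.

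For RIP the cells were lysed with a mild detergent, the lysate was cleared by centrifugation, and RNA was taken off the beads, whereas total RNA was taken directly from cell pellets. The labels do not give the species or maker of the IgG. They do not say whether the 4 replicates were separate cultures, so p-values measure the spread between these libraries. Because lysis, clearing and bead capture separate IgG from total RNA together, their parts in any difference below cannot be told apart. Libraries were made from 7 ng of RNA with a stranded, randomly primed kit, which keeps RNAs without a poly(A) tail. The IgG libraries held 21.2 M counts in DMSO, 24.5 M in LPS and 8.87 M in LPS+TM7nox. The RNA libraries held 2.73 to 28.3 M counts, the lowest being RNA DMSO replicate 1. No sequencing batch was given in the labels.

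A control IgG has no intended target. What it recovers is the background of an immunoprecipitation: RNA that sticks to beads or antibody, RNA in particles that settle with the beads, and any RNA bound to a protein that the antibody happens to recognise or that recognises the antibody. Macrophages carry Fc receptors, which bind the constant part of IgG. HuR, encoded by Elavl1, holds on to U-rich and AU-rich sequence in mRNAs and is the target of the anti-HuR libraries, 12 in number, which are used below only for reference.

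Control IgG RNA was in large part a copy of the total RNA, with a short list of mRNAs far above it. Across 13162 genes tested, the median log2 fold change of IgG over RNA was -0.02, and 9587 genes (72.8%) lay within 0.5 of 0 on the log2 scale. edgeR's quasi-likelihood test with treatment as a covariate called 1874 genes at a Benjamini-Hochberg false discovery rate (FDR) under 0.05, which is 14.2% of those tested. Of these, 1007 (7.65%) were higher and 867 (6.59%) lower in IgG. At 2-fold or more, 187 were higher (1.42%) and 101 lower (0.767%), and 36 (0.274%) were called higher by 3 or more on the log2 scale. The 3 IgG libraries lay above all 12 RNA libraries for 349 genes (2.65%) and below all of them for 249 (1.89%). The number of calls rests on all 3 IgG libraries: it was 1011 without the IgG library of DMSO, 998 without that of LPS and 691 without that of LPS+TM7nox. It was 3079 when only the replicate 3 libraries were used. With the replicate number as a block it was 1664, with 799 higher and 865 lower, and 1291 of these were among the 1874. With library size alone in place of TMM scaling, the median of all genes moved up to 0.13 and the split became 1715 higher and 348 lower.

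**Figure D1:**
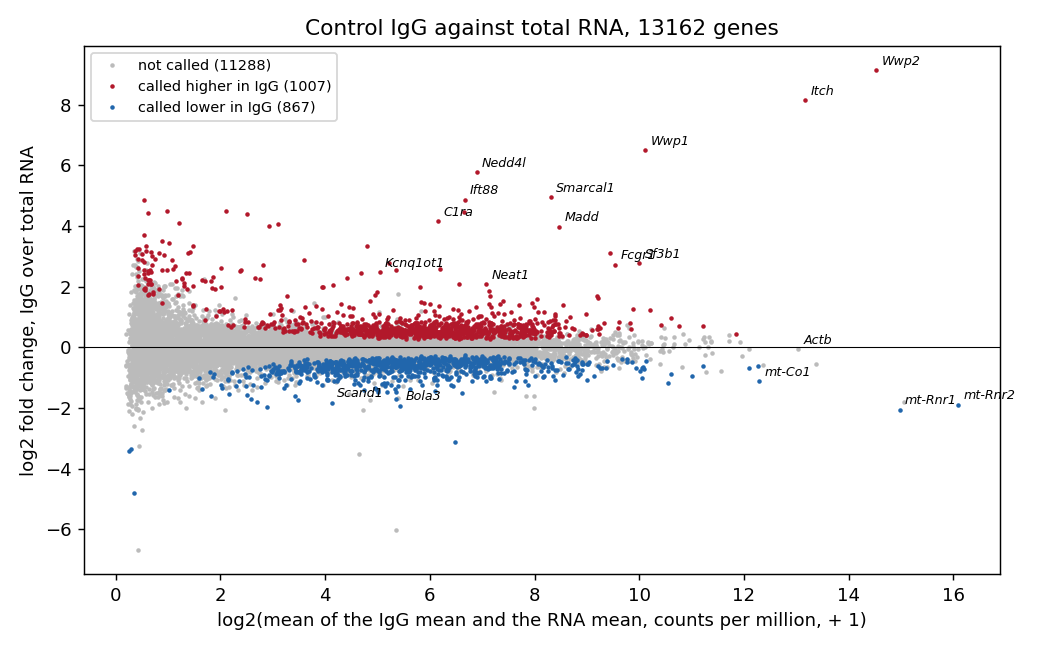
Log2 fold change of control IgG over total RNA for each gene tested (vertical axis) against the log2 of its mean level in CPM plus 1 (horizontal axis). Red points are the 1007 genes called higher and blue points the 867 called lower. Most genes lie in a narrow band around 0, and a few named mRNAs, led by Wwp2 at 9.14, stand far above it.

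The RNAs furthest above the total RNA were mRNAs of the NEDD4 family of ubiquitin ligases: Wwp2, Itch, Wwp1 and Nedd4l. These enzymes attach ubiquitin to other proteins. Each has a lipid-binding C2 domain, several WW domains that grip proline-rich motifs in substrates, and a catalytic HECT domain at its end. Together the 4 mRNAs took 8.82% of all counts of the IgG library of DMSO (Wilson 95% interval 8.80 to 8.83%), 6.01% in LPS (6.01 to 6.02%) and 7.39% in LPS+TM7nox (7.37 to 7.41%); such intervals cover counting error only. In the RNA libraries they took between 0.0138 and 0.0281%. The family was singled out after its values had been seen.

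Of the 9 family members, 6 passed the filter on low counts, 4 were higher in IgG and 2 were not called. This is 66.7% of those tested, against 14.2% of all genes called. Since the coding sequences of the family are related, the stretch that Wwp2, Itch and Wwp1 share most closely is shown first, beside the same stretch of Smurf1 and Smurf2, which were not recovered above total RNA. Each run is 90 bases of coding sequence on the sense strand, within 1 exon, from GENCODE M39 on GRCm39. Capitals mark bases that are the same in Wwp2, Itch and Wwp1 and, for the Smurf genes, bases that equal those shared ones. The stretches are chr8:108278909-108278998 (plus strand, exon 17 of 24) for Wwp2, chr2:155050979-155051068 (plus, exon 18 of 25) for Itch, chr4:19631116-19631205 (minus, exon 18 of 25) for Wwp1, chr5:144823197-144823286 (minus, exon 12 of 17) for Smurf1 and chr11:106726921-106727010 (minus, exon 13 of 19) for Smurf2.
Wwp2: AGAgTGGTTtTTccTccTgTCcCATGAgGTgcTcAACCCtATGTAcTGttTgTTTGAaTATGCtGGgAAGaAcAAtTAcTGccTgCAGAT
Itch: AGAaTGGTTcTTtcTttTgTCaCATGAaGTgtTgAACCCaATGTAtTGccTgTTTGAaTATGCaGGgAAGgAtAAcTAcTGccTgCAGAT
Wwp1: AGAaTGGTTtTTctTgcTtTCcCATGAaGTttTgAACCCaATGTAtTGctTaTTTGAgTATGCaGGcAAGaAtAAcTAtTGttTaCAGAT
Smurf1: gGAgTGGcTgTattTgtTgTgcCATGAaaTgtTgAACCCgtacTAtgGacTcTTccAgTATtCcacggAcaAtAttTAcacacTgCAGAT
Smurf2: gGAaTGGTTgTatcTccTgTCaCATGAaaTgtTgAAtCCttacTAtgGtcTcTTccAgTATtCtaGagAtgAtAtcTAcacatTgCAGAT

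In this stretch 63 of 90 bases were shared by Wwp2, Itch and Wwp1, and Smurf1 and Smurf2 held 44 and 46 of those bases. The longest run of identical bases between any 2 of the 3 coding sequences was 18 (Wwp2 with Itch, and Itch with Wwp1). The best ungapped window of 300 bases was 80.7% identical between Wwp2 and Itch, 74.3% between Wwp2 and Wwp1 and 81.7% between Itch and Wwp1. With these 3, the best windows of Nedd4l reached 57.3 to 59.7%, and those of Smurf1 and Smurf2 64.0 to 67.0%. The longest identical runs with them were 15 to 21 bases for Nedd4l and 13 to 17 for the Smurf genes.

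Levels are given as CPM, a gene's counts scaled to a common library total with TMM factors. Wwp2 (ENSMUSG00000031930, chr8:108162988-108286023, plus strand) stood at 47896 CPM in the IgG library of DMSO, 41139 in LPS and 52369 in LPS+TM7nox. In the 12 RNA libraries it lay between 64.3 and 134 CPM, with a median of 82.2. The groups did not overlap, and the log2 fold change was 9.14 (SE 0.170, FDR 1.93e-16 by edgeR's quasi-likelihood test), a 564-fold difference. Wwp2 was the single RNA with the most counts in the IgG libraries, ahead of the mitochondrial rRNA mt-Rnr2. In the anti-HuR libraries it lay between 1715 and 5336 CPM, also above every RNA library and below every IgG library.

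Itch (ENSMUSG00000027598, chr2:154975388-155069532, plus strand), a ligase that restrains T cell activation, stood at 13870, 19683 and 21745 CPM in IgG of DMSO, LPS and LPS+TM7nox. It lay between 40.2 and 87.6 CPM in the RNA libraries (median 64.9), and the log2 fold change was 8.14 (SE 0.147, FDR 1.88e-16 by edgeR). Wwp1 (ENSMUSG00000041058, chr4:19605285-19709190, minus strand) stood at 3632, 1633 and 1318 CPM in IgG, against 13.03 to 46.2 in RNA (median 19.6), a log2 fold change of 6.50 (SE 0.141, FDR 1.93e-15 by edgeR). For both mRNAs the 3 IgG libraries lay above all RNA and all anti-HuR libraries; the latter ranged from 371 to 2325 CPM for Itch and from 52.2 to 227 for Wwp1.

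The fall of Wwp1 with LPS in IgG ran beside a fall in the total RNA, from 37.5 ± 7.18 CPM (SD, n = 4) in DMSO to 17.6 ± 3.04 in LPS and 16.0 ± 3.94 with TM7nox added, each over 4 libraries. The ratio of IgG to RNA within replicate 3 was therefore nearly the same in the 3 treatments, at 102, 105 and 101. For Wwp2 the same ratio was 566, 505 and 610, and for Itch it was 206, 297 and 248.

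Nedd4l (ENSMUSG00000024589, chr18:65020724-65350899, plus strand), a ligase known for pulling the epithelial sodium channel off the cell surface, was near the limit of detection in total RNA. It stood at 0, 2.20, 0.815 and 1.00 CPM in the 4 RNA libraries of DMSO, at 0.548 to 1.89 in LPS and at 3.27 to 5.76 in LPS+TM7nox. In IgG it stood at 21.2 CPM in DMSO, 36.7 in LPS and 642 in LPS+TM7nox, so that the LPS+TM7nox library alone carried most of its signal; without that library the log2 fold change was 4.67 in place of 5.78. The anti-HuR libraries were also highest in LPS+TM7nox, where they held 8.81 to 54.2 CPM. Those of DMSO held 1.69 to 2.43 and those of LPS 0.999 to 3.11. The log2 fold change of IgG over RNA was 5.78 (SE 0.387, FDR 4.23e-08 by edgeR), and the ratio within replicate 3 was 26.1, 67.0 and 112.

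Smurf1 and Smurf2, family members that act on SMAD signalling proteins, gave the opposite picture. Smurf1 stood at 16.4, 20.6 and 21.1 CPM in IgG and at 13.3 to 28.3 in RNA, a log2 fold change of 0.03 (SE 0.143, FDR 0.930 by edgeR). Smurf2 stood at 27.5, 39.1 and 22.7 CPM in IgG and at 23.9 to 33.0 in RNA, with 0.06 (SE 0.103, FDR 0.745). Their IgG and RNA values overlapped. Nedd4, Hecw1 and Hecw2 stood below 1 CPM in all 15 libraries and were not tested.

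The ligases outside the family that also end in a HECT domain, and proteins outside it that carry WW domains, were looked at as lists made after the family's values were known. Of 16 HECT ligases tested, 6 were higher and none lower, with a median log2 fold change of 0.34; 37.5% were called, against 14.2% of all genes. Among them were Herc2 (1.52), Herc1 (1.10), Hectd4 (0.82) and Herc4 (0.78), each with a coding sequence of 3147 bases or more. Of 25 WW-domain genes tested, 5 (20%, against 7.65% of all genes) were higher and none lower (median 0.17), the highest being Magi1 at 0.80, whose call was lost without the IgG library of LPS (FDR 0.0622). Their changes were far smaller than those of the 4 NEDD4-family mRNAs.

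**Figure D2:**
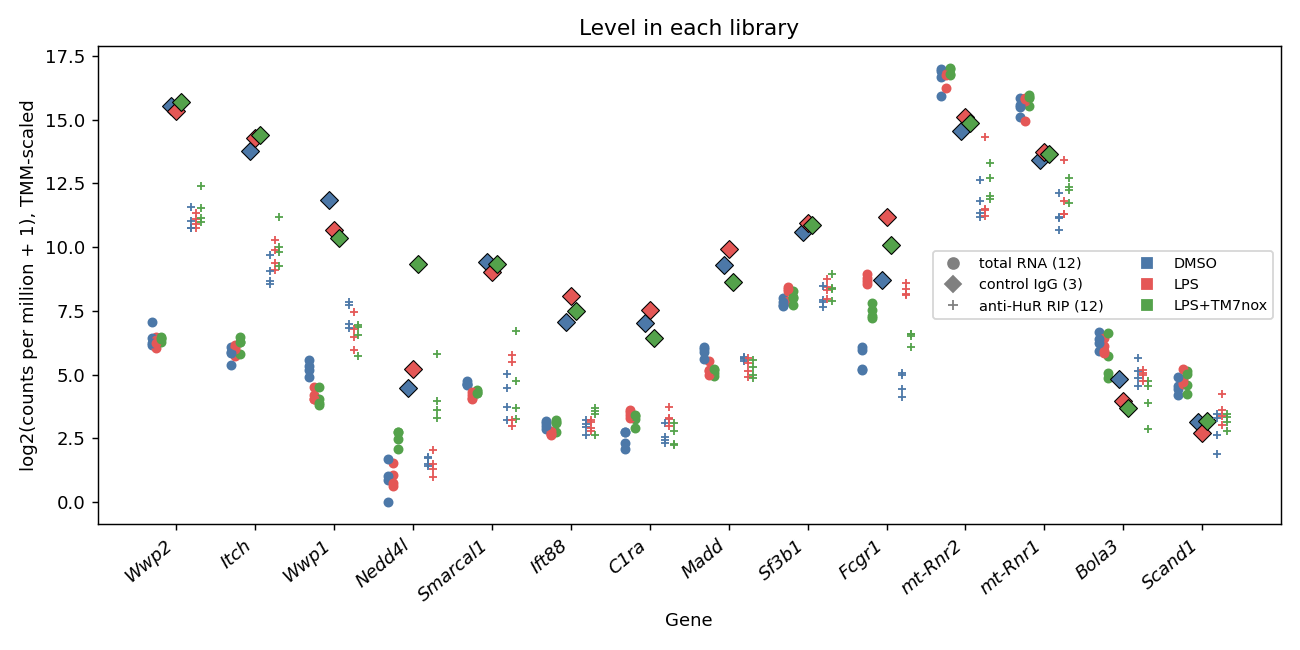
Level of 14 RNAs in every library as log2 of CPM plus 1 (vertical axis), with total RNA as circles, control IgG as diamonds and anti-HuR RIP as crosses, coloured by treatment. For Wwp2, Itch and Wwp1 the 3 diamonds lie above every circle and every cross, for Nedd4l they lie above every circle, and for mt-Rnr1 and mt-Rnr2 they lie below every circle.

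A further group of mRNAs was raised by 1 to 5 units on the log2 scale. Smarcal1 (ENSMUSG00000039354, chr1:72574766-72675951), a helicase that re-anneals DNA coated by the single-strand binding protein RPA, stood at 674, 519 and 644 CPM in IgG. It lay between 15.4 and 26.1 CPM in the 12 RNA libraries, and the log2 fold change was 4.95 (SE 0.078, FDR 3.76e-17 by edgeR). The 3 IgG values were close together and far above every RNA value. In the anti-HuR libraries Smarcal1 lay between 6.84 and 12.4 CPM in replicates 1 and 2 of each treatment and between 21.1 and 102 in replicates 3 and 4.

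Smarcal1 belongs to a set of genes whose proteins bind RPA or work with it, put together after the ranking had been seen and therefore no independent evidence of a theme. Of 30 tested, 9 were higher and 2 lower (median 0.29), which is 36.7% called against 14.2% of all genes. Rmi1, a scaffold of the Bloom helicase complex, stood at 60.3, 31.2 and 52.9 CPM in IgG and at 2.01 to 16.6 in RNA, a log2 fold change of 3.35 (SE 0.228, FDR 4.79e-08). Blm, the Bloom helicase itself, stood at 223, 73.6 and 73.1 CPM against 8.30 to 36.4 (log2 2.56, SE 0.137), and Atrip, the partner of the checkpoint kinase ATR, at 90.2, 50.8 and 62.8 CPM against 8.47 to 15.8 (log2 2.54, SE 0.125). None of these 3 overlapped with RNA. Atrip shares its strand and position with Trex1, so its count is uncertain. Etaa1 (1.44), Rad52 (1.22), Wrn (1.08), Helb (0.64) and Hltf (0.52) were also called higher. The RPA subunits themselves were not: Rpa1 was at 0.12 (FDR 0.757), Rpa2 at 0.08 (FDR 0.754), and Rpa3 was called lower at -0.77, as was Tipin at -0.44. Several of these calls were lost when 1 IgG library was left out. This held without any 1 of them for Helb (FDR 0.0667 to 0.253), Hltf (0.0675 to 0.156) and Tipin (0.1002 to 0.163), and without that of DMSO for Rpa3 (0.0518). Tipin also had 0.0549 without RNA DMSO replicate 3.

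Ift88, a core part of the intraflagellar transport particle that carries cargo along cilia, stood at 132, 271 and 180 CPM in IgG and at 5.17 to 8.25 in RNA, with no overlap. Its log2 fold change was 4.86 (SE 0.158, FDR 1.11e-12 by edgeR), and it lay at 5.13 to 12.02 CPM in the anti-HuR libraries. Of 20 intraflagellar transport genes tested, again a list made after the ranking, 4 (20%, against 7.65% of all genes) were higher and none lower, and the median was 0.04. The other 3 were Dync2h1, the motor heavy chain (2.00), Ift172 (0.93) and Ift140 (0.68). Ift172 had an FDR of 0.0529 without the IgG library of DMSO, and Ift140 of 0.0692 without that of LPS. Sf3b1, the large subunit of the SF3b complex that recognises the branch point of introns, stood at 1541, 1943 and 1882 CPM in IgG against 204 to 340 in RNA (log2 2.77, SE 0.111, FDR 2.99e-11). Of 7 SF3b genes tested, also a list made after the ranking, 42.9% were called, against 14.2% of all genes. Sf3b1 itself is among those called. Sf3b3 was also higher (0.82) and Sf3b6 lower (-0.50), the latter a call lost without any 1 of the IgG libraries (FDR 0.0579 to 0.0752).

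Madd, a guanine nucleotide exchange factor for Rab3, stood at 621, 980 and 397 CPM in IgG and at 30.1 to 66.6 in RNA (log2 3.98, SE 0.164, FDR 3.99e-11). C1ra, a protease of the complement C1 complex, stood at 130, 183 and 84.4 CPM against 3.22 to 11.1 (log2 4.15, SE 0.184, FDR 1.15e-10). Neither overlapped with RNA, and both were at RNA-like levels in the anti-HuR libraries (28.3 to 49.99 and 3.65 to 12.4 CPM). C1ra has a near-identical neighbour, C1rb, so its count is uncertain as to which copy it came from. Calcoco1, a receptor for selective autophagy, was raised by 2.77 (SE 0.229, FDR 6.24e-07).

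Fcgr1 (ENSMUSG00000015947, chr3:96190225-96201338, minus strand) encodes the high-affinity receptor for IgG. Its mRNA stood at 419 CPM in IgG of DMSO, 2322 in LPS and 1079 in LPS+TM7nox. In total RNA it ranged from 35.5 to 67.4 CPM in DMSO, from 371 to 490 in LPS and from 149 to 223 in LPS+TM7nox. Within each treatment the IgG library lay above all 4 RNA libraries, although the ranges over all treatments overlapped. The log2 fold change was 2.71 (SE 0.163, FDR 1.07e-08 by edgeR), and the ratio within replicate 3 was 6.92, 5.22 and 5.82. The anti-HuR libraries were below the RNA mean of their treatment, at 16.6 to 32.1, 275 to 382 and 66.5 to 96.2 CPM. The other 3 Fc gamma receptors were not called: Fcgr2b was at 0.06 (FDR 0.886), Fcgr3 at -0.24 (FDR 0.434) and Fcgr4 at -0.39 (FDR 0.349). Of the 7 genes listed as Fc receptors or Fc-binding proteins, 1 was higher (Fcgr1) and 1 lower, which is 28.6% called against 14.2% of all genes. The lower one was Fcer1g, the signalling chain shared by Fc receptors, at -0.42 (SE 0.113, FDR 0.0199), a call lost without any 1 of the IgG libraries (FDR 0.0583 to 0.127). Trim21, the cytosolic antibody receptor, was at 0.23 (FDR 0.714).

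Of 1031 long noncoding RNAs tested, 36 (3.49%) were called higher and 9 (0.873%) lower, both below the shares of all genes tested, 7.65 and 6.59%. Of 11 RNAs listed as kept in the nucleus, 3 were higher and none lower, with a median of 0.65, which is 27.3% called against 14.2% of all genes. Neat1, the scaffold of paraspeckles, stood at 394 CPM in IgG of DMSO, 47.1 in LPS and 221 in LPS+TM7nox, against 23.5 to 74.7 in RNA (log2 2.07, SE 0.340, FDR 7.02e-04). Kcnq1ot1, an imprinted RNA that silences its chromosomal neighbourhood, stood at 134, 4.96 and 29.8 CPM against 2.21 to 14.6 (log2 2.47, SE 0.451, FDR 0.00165). For both, the LPS library of IgG lay inside the RNA range. Without the IgG library of DMSO, Neat1 stood at 1.23 (FDR 0.0361) and Kcnq1ot1 at 1.70 (FDR 0.0815), and without that of LPS Kcnq1ot1 stood at 3.16. Malat1, a nuclear speckle RNA, stood at 3391, 749 and 1283 CPM against 585 to 2135 and was not called (log2 0.65, SE 0.246, FDR 0.0921). It was called in 6 of 25 alternatives, among them without the IgG library of LPS (0.96, FDR 0.0334) and without RNA LPS replicate 2 (FDR 0.0469), and stood at 0.21 without the IgG library of DMSO (FDR 0.723). In the anti-HuR libraries of DMSO, Malat1 (2304 to 5871 CPM), Neat1 (85.2 to 372) and Kcnq1ot1 (19.0 to 121) also lay above the RNA libraries of DMSO. Nktr (0.51, FDR 0.0188) was the other gene of the list called. Its adjusted p was 0.111 with the replicate number as a block and 0.0522 to 0.167 without any 1 of the IgG libraries. The share of counts from long noncoding RNAs was 1.11% in IgG of DMSO, 0.338% in LPS and 0.486% in LPS+TM7nox, against 0.408 ± 0.089% in RNA (SD, n = 12). An exact permutation test of which library of each treatment is called IgG, two-sided, gave p = 0.04 (adjusted over 8 shares, 0.0457). The adjusted p stayed under 0.05 in 4 of the 15 fits that left out 1 library, and it was 0.134 with mitochondrially encoded genes left out of the total. Without the IgG library of DMSO the difference of the shares fell from 0.237 to 0.0531 percentage points.

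Among RNAs with other roles, small structured RNAs gave 21 higher (15.3%) and 2 lower (1.46%) of 137 tested, against 7.65 and 6.59% of all genes. Of the 12 tested members of the list of cytoplasmic and nucleolar ones, 1 was higher and 2 lower (25% called, against 14.2% of all genes), 10 had a negative log2 fold change and the median was -0.40. The share of counts of the whole class gave no difference that passed the test (1.58 ± 0.34% in IgG, n = 3, and 1.98 ± 0.64% in RNA, n = 12, exact permutation p = 0.304). The box H/ACA small nucleolar RNAs Snora62 (log2 2.88, SE 0.468, FDR 6.51e-04) and Snora78 (2.24, SE 0.490, FDR 0.00555) and the minor spliceosome RNA Rnu12 (1.70, SE 0.222, FDR 9.50e-05) lay above all 12 RNA libraries. Snora78 had an FDR of 0.0624 without the IgG library of DMSO and 0.0805 without that of LPS+TM7nox. Snora62 lies within Rpsa and Snora78 within Snhg9, so a part of their counts could come from the host transcript. Bc1, a cytoplasmic RNA linked to translation control, moved the other way. It stood at 8.59, 18.2 and 31.7 CPM in IgG against 16.0 to 410 in RNA (log2 -3.12, SE 0.738, FDR 0.00889), with an FDR of 0.0655 without the IgG library of DMSO and 0.0550 without that of LPS. With the replicate number as a block Bc1 stood at -1.58 (FDR 0.00456). Rn7sk, which holds the elongation factor P-TEFb inactive, was at -0.62 (FDR 0.0267), with an FDR of 0.124 with the replicate block, 0.193 without the IgG library of LPS and 0.145 without that of LPS+TM7nox. None of 14 small nucleolar RNA host genes was called, against those 14.2%, Gas5 being at 0.28 (FDR 0.202) and Snhg1 at -0.22 (FDR 0.582). Of 843 pseudogenes tested 7 (0.830%) were higher and 24 (2.85%) lower, both below the 7.65 and 6.59% of all genes. Their share of counts was higher in IgG, at 1.02 ± 0.027% (SD, n = 3) against 0.806 ± 0.104% in RNA (n = 12, exact permutation p = 0.016, adjusted 0.0213). The adjusted p of that share was 0.134 with mitochondrially encoded genes left out of the total.

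Both mitochondrial rRNAs, which sit inside the organelle, and a pair of mitochondrial mRNAs were lower in IgG: of 9 mitochondrially encoded RNAs of the list tested, 4 were lower and none higher (median -0.57), which is 44.4% called against 14.2% of all genes. mt-Rnr2, the large rRNA, stood at 23770, 35560 and 29571 CPM in IgG and between 62270 and 134450 in RNA (log2 -1.90, SE 0.260, FDR 1.46e-04). mt-Rnr1, the small one, stood at 10934, 13564 and 12927 CPM against 31934 to 64176 (log2 -2.06, SE 0.236, FDR 2.89e-05). Neither overlapped. mt-Co1, a subunit of complex IV, was at -1.11 (SE 0.188, FDR 8.90e-04) and mt-Cytb, of complex III, at -0.94 (FDR 0.00543, and 0.0508 without the IgG library of DMSO). The other 5 tested members of the list were not called: mt-Nd1 was at -0.57, mt-Nd4 at -0.14, mt-Nd2 at 0.21, mt-Nd5 at 0.26 and mt-Nd6 at 0.58. With the replicate number as a block mt-Nd6 was called higher (0.68, FDR 0.0189), and it was also called without RNA DMSO replicate 2 (FDR 0.0487). Without RNA DMSO replicate 1, mt-Nd1 was called lower (FDR 0.0380). Outside the list, the mitochondrial tRNA gene mt-Tp, singled out after its values were seen, was called higher at 1.12 (SE 0.304, FDR 0.0197), with 8.80, 14.6 and 26.3 CPM in IgG against 3.37 to 10.8 in RNA, and the groups overlapped. Its call was lost without the IgG library of LPS+TM7nox (0.68, FDR 0.327) and without that of LPS (FDR 0.0707). Mitochondrially encoded RNA made up 5.67 ± 0.42% of IgG counts (SD, n = 3) and 17.4 ± 2.95% of RNA counts (n = 12). The exact permutation test gave p = 0.008 (0.0128 when adjusted), and no smaller p is possible in the design. The test exchanges labels in each treatment separately, although same-numbered RNA libraries deviated together and all IgG libraries carry the number 3. Histone mRNA, ribosomal protein mRNA and the other shares below were tested in the same way. IgG minus RNA was -0.139 percentage points for histone mRNA and -0.603 for ribosomal protein mRNA. Each had p = 0.008 by exact permutation (0.0128 when adjusted).

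Short mRNAs made up most of the genes that fell. Replication-dependent histones, whose mRNAs end in a stem-loop in place of a poly(A) tail, had 21 of 37 tested lower and none higher, with a median of -0.95; 56.8% were called, against 14.2% of all genes. Among them H3c10 was at -1.73, H3c4 at -1.71 and H1f2 at -0.90 (SE 0.173, FDR 0.00227). The call of H3c10 was lost without any 1 of the IgG libraries (FDR 0.0937 to 0.165) and without RNA DMSO replicate 2 (0.0502). H4c4 (-0.52, FDR 0.0389) had an adjusted p of 0.128 with the replicate block, 0.0809 to 0.179 without any 1 of the IgG libraries, and 0.0553 to 0.0565 without RNA DMSO replicate 2, 3 or 4. H2bc8, a highly expressed member, was at -1.60 and not called (FDR 0.132), and at -0.59 with the replicate block (FDR 0.224). Histone genes have near-identical copies, and how reads were split among them is not given in the sources used here. Histone mRNA also varied with treatment: it made up 0.582, 0.0664 and 0.121% of IgG counts in DMSO, LPS and LPS+TM7nox, against 0.878, 0.0967 and 0.177% in the RNA libraries of replicate 3.

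Cytosolic ribosomal protein mRNAs had 24 of 80 tested (30%, against 6.59% of all genes) lower and none higher (median -0.42), from Rps21 at -1.13 to Rpl9 at -0.43. Both lost their calls without any 1 of the IgG libraries (FDR 0.0684 to 0.151 for Rps21 and 0.0860 to 0.128 for Rpl9). Most members, 56 of 80, were not called, among them Rpsa (-0.27, FDR 0.183) and Rpl4 (-0.15, FDR 0.494). Nuclear-encoded subunits of the respiratory chain and ATP synthase had 18 of 40 lower and 1 higher (median -0.40), which is 47.5% called against 14.2% of all genes. Among those lower were Cox5a at -0.99 and Atp5e at -0.98, and the 1 higher was Sdha, the large flavoprotein of complex II, at 0.53 (SE 0.086, FDR 6.09e-04). Cox5a lost its call without the IgG library of LPS (FDR 0.168) or of LPS+TM7nox (0.162). Atp5e lost it without any 1 of the IgG libraries (0.0935 to 0.207) and without RNA DMSO replicate 2 or 4 or RNA LPS replicate 2 or 4 (0.0506 to 0.0560). Cox6c (-0.57, FDR 0.154) was called with the replicate block (FDR 0.0106) and without RNA DMSO replicate 1 (0.0231).

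The lowest single mRNAs by the naming rule were of the same kind. Bola3, a factor for iron-sulfur cluster assembly, stood at 27.6, 14.5 and 11.7 CPM in IgG and at 28.5 to 100.1 in RNA (log2 -1.93, SE 0.322, FDR 7.79e-04). Scand1 stood at 7.92, 5.47 and 8.12 CPM against 17.1 to 36.3 (log2 -1.83, SE 0.242, FDR 1.04e-04). S100a10, the partner of annexin A2, stood at 120, 157 and 141 CPM against 225 to 506 (log2 -1.25, SE 0.187, FDR 3.43e-04). None of the 3 overlapped. Taf10 (-1.48), Rbis (-1.38), Emc6 (-1.34), Ndufc1 (-1.27) and Uqcr10 (-1.26) completed the group. Taf10 stood at -0.75 with the replicate number as a block (FDR 0.00232). It lost its call without the IgG library of LPS+TM7nox (FDR 0.0527), and Ndufc1 without any 1 of the IgG libraries (FDR 0.0926 to 0.147).

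**Figure D3:**
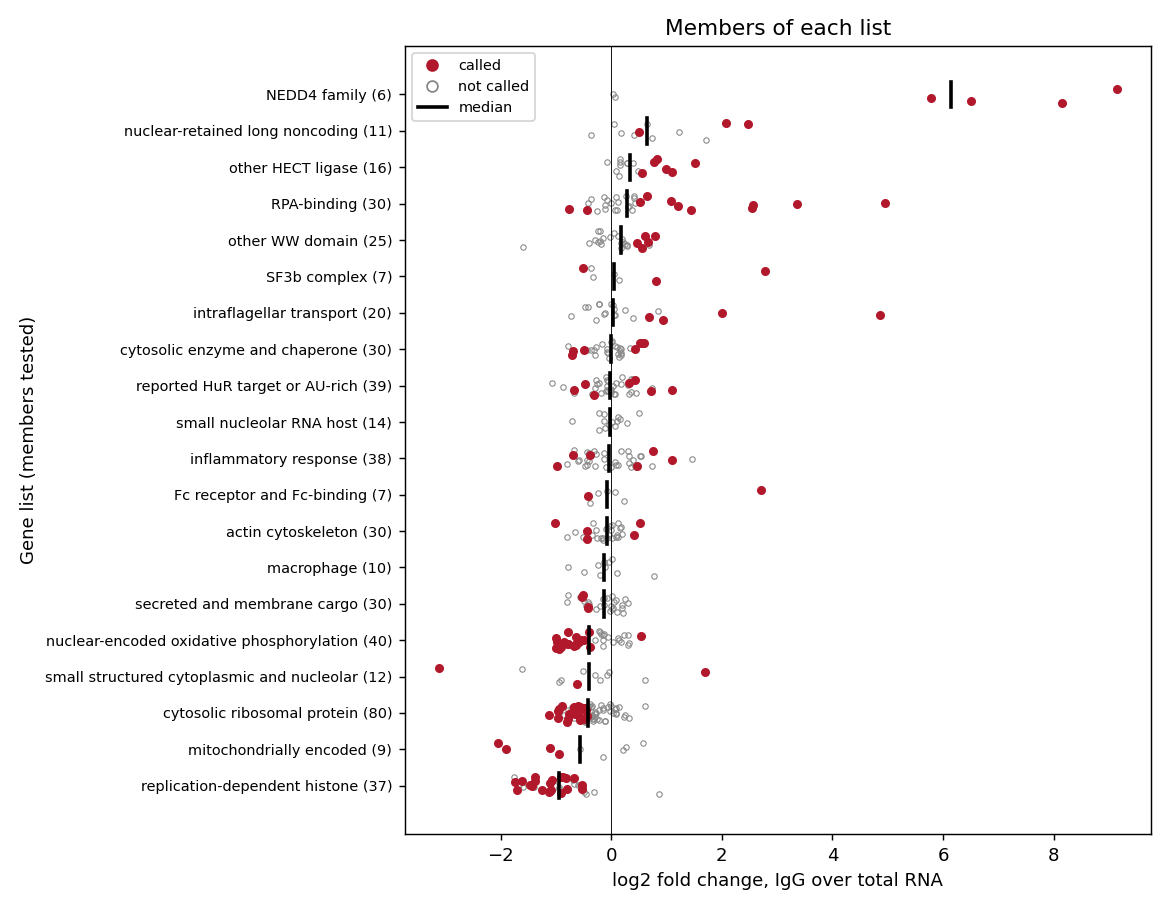
Log2 fold change of IgG over total RNA (horizontal axis) for the tested members of each gene list (vertical axis, number tested in brackets). Filled red points passed an FDR of 0.05, open points did not, and bars are medians. The NEDD4 family has 4 points above 5, and the histone list has its median at -0.95.

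Among protein-coding genes the log2 fold change rose with coding length. Lengths were taken from the Ensembl canonical transcript in GENCODE M39 for 11084 of 11128 protein-coding genes tested, without the stop codon. In the quintile with the shortest coding sequences (105 to 747 bases) the median log2 fold change was -0.33. There 5 genes (0.226%) were higher and 513 (23.1%) lower, against 7.65 and 6.59% of all genes. In the next quintiles it was -0.11, 0.01 and 0.09. In the quintile with the longest (2475 bases and above) it was 0.28, with 608 genes (27.4%) higher and 26 (1.17%) lower. Wwp2 (2610 bases), Itch (2592), Wwp1 (2754) and Smarcal1 (2730) fall just inside the longest quintile, whose median length was 3501 bases. The gene lists above were set against all genes. They were not set against genes of like coding length, so their shares are not separate from this order.

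The number of exons ordered the same genes in a similar way: the medians of its quintiles were -0.20, -0.18, -0.05, 0.06 and 0.28. In the quintile with the most exons 624 genes (28.1%) were higher and 26 (1.17%) lower, against 7.65 and 6.59% of all genes. The untranslated regions showed no such order. Across quintiles of the 3′ untranslated region the medians lay between -0.03 and -0.01, and across quintiles of the 5′ untranslated region between -0.03 and 0.00. Spearman's rho with the log2 fold change across genes, which are not independent replicates, was 0.50 for coding length, 0.41 for the number of exons, 0.29 for transcript length, 0.02 for either untranslated region, -0.11 for the GC content of the coding sequence and -0.04 for the mean level. The difference between long and short coding sequences remained inside each tertile of 3′ untranslated length, of level and of coding GC. It was narrowest in the most GC-rich tertile, where the medians were -0.33 for the shortest quintile and 0.20 for the longest. It was widest in the tertile with the shortest 3′ untranslated regions, at -0.36 and 0.34.

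Each IgG library showed the order by itself. Set against the RNA libraries of its treatment, the longest quintile stood above the shortest by 0.50 in IgG of DMSO, 0.55 in LPS and 0.61 in LPS+TM7nox. Single RNA libraries, set against the other 3 of their treatment, ranged from -0.19 to 0.18. When each library was set against the mean of all 5 of its treatment, the difference between IgG and RNA was 0.56, with an exact permutation p of 0.008, two-sided, the smallest possible. This measure was chosen after the pattern had been seen. The anti-HuR libraries also stood lower for short coding sequences than for the longest, by 0.14 to 0.61.

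**Figure D4:**
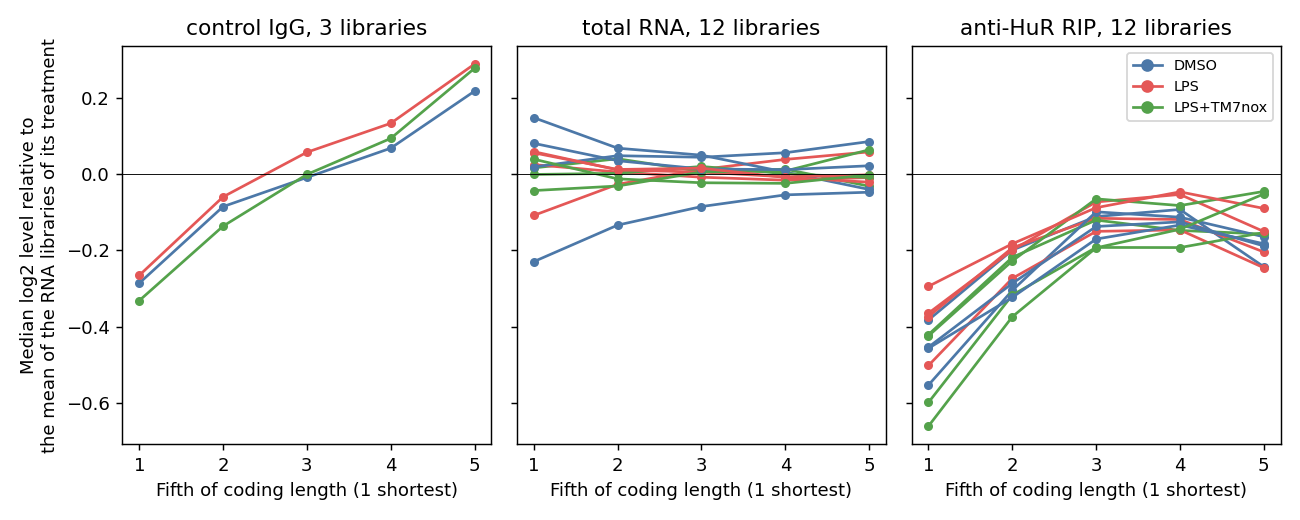
Median log2 level by quintile of coding length (horizontal axis, 1 the shortest) in each library, relative to the mean of the total RNA libraries of its treatment, leaving the library itself out (vertical axis). The 3 IgG lines climb from about -0.3 to 0.2 or above, the 12 RNA lines stay between -0.23 and 0.15, and the 12 anti-HuR lines are each lowest in the shortest quintile.

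Across quintiles of anti-HuR recovery the medians of IgG over RNA stayed near 0. Genes were split into quintiles by anti-HuR over RNA in replicates 1, 2 and 4, so that the split shares no library with IgG over RNA in replicate 3. From the lowest quintile to the highest, the median of anti-HuR over RNA in replicate 3 of DMSO ran from -1.54 to 2.29. The medians of IgG over RNA in the same quintiles lay between -0.08 and 0.03 in DMSO, between -0.02 and 0.05 in LPS and between -0.04 and 0.00 in LPS+TM7nox. Actb, the cytoplasmic actin mRNA, shows the contrast. It stood at 80767 to 401538 CPM in the anti-HuR libraries, at 4590, 13784 and 6719 in IgG and at 4916 to 12838 in RNA (IgG over RNA -0.07, SE 0.153, FDR 0.812). Elavl1, which encodes HuR, stood at 2796 CPM or more in every anti-HuR library and at 81.9, 120 and 105 in IgG, against 98.4 to 168 in RNA (log2 -0.35, SE 0.139, FDR 0.112). Of 39 tested genes reported as HuR targets or as carrying AU-rich elements, 4 were higher and 3 lower in IgG (median -0.01), so that 17.9% were called against 14.2% of all genes. The highest was Nos2, the inducible nitric oxide synthase, at 1.09 (SE 0.206, FDR 0.00210), and the lowest Ptma at -0.68.

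The inflammatory response to LPS was also seen in the IgG libraries. Of 38 inflammatory genes tested, 3 were higher, 3 lower and 32 not called in IgG over RNA (median -0.05), so that 15.8% were called against 14.2% of all genes. Tnf, the macrophage cytokine, stood at 65.1, 1521 and 1820 CPM in IgG, and its RNA means were 70.0 ± 23.0, 899 ± 95.3 and 1318 ± 309 (SD over 4 libraries each), and it was not called (0.40, SE 0.194, FDR 0.192). Il1b stood at 1.79, 2606 and 677 CPM against RNA means of 0.942, 1509 and 424 (0.75, SE 0.367, FDR 0.199), and was called without RNA DMSO replicate 3 (1.00, FDR 0.0393). Ptgs2 (0.18), Acod1 (0.33), Cxcl2 (0.45) and Ccl3 (-0.28) were not called either.

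The test for LPS in total RNA, 4 libraries against 4, called 1294 genes (10.5%) at 2-fold or more upward. Of the 1292 that were also tested in IgG over RNA, 1269 were higher in the IgG library of LPS than in that of DMSO. That is 98.2%, against 52.4% of all 12366 genes compared. Their median was 1.87 in IgG and 2.12 in RNA. Of 1340 genes that fell in RNA (10.8%), 1328 were lower in IgG (99.1%, against 47.6% of all compared), with medians of -1.40 in IgG and -1.53 in RNA. The IgG side is 1 library against 1 and has no test. For LPS+TM7nox against LPS, 315 of 325 genes raised in RNA (2.63%) were higher in IgG. That is 96.9%, against 45.5% of all genes compared. Of the 290 lowered (2.34%), 289 were tested in IgG and 274 were lower there (94.8%, against 54.4% of all compared). Across all genes, Spearman's rho between an IgG library and the RNA libraries of its own treatment was 0.94 to 0.99, and with those of the other treatments 0.87 to 0.97.

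**Figure D5:**
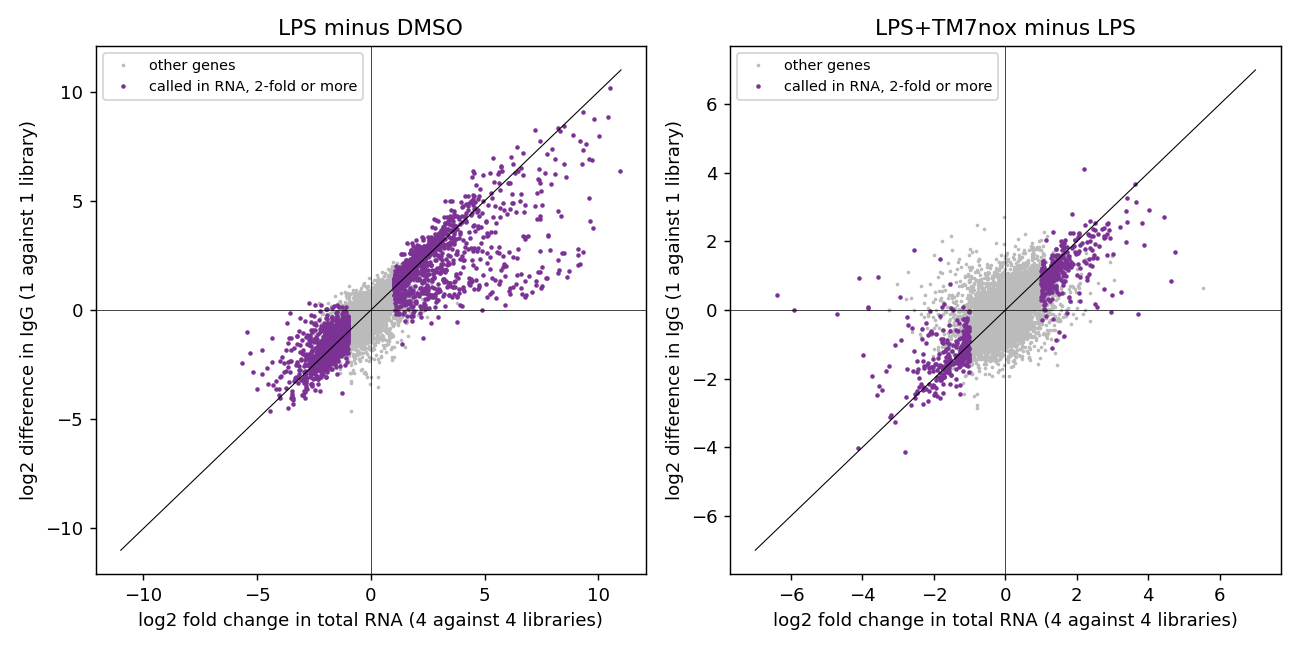
Log2 difference between treatments in IgG, 1 library against 1 on log2 of CPM plus 0.5 (vertical axis), against the log2 fold change in total RNA, 4 libraries against 4 (horizontal axis), for LPS minus DMSO and LPS+TM7nox minus LPS. Purple points passed the test in RNA at 2-fold or more and the diagonal marks equal change. Most purple points lie in the lower left and upper right, and the added 0.5 shrinks the IgG differences of genes with low levels.

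Whether IgG recovery itself changed with treatment was asked by the interaction of assay and treatment. The single IgG library of each treatment was there assumed to vary like the RNA libraries. edgeR called no gene for LPS against DMSO (289 genes, 2.2%, at an unadjusted p under 0.05) and none for LPS+TM7nox against LPS (262 genes, 1.99%). With the replicate number as a block the first comparison called 4 genes, whose estimates for LPS minus DMSO were -2.99 for Neat1, -3.90 for Kcnq1ot1, 1.25 for Smg1 and 1.17 for Btaf1. Since each treatment has 1 IgG library, these are differences between 2 IgG libraries, and a change of recovery with treatment was not shown. DESeq2 called 6, of which Neat1, Kcnq1ot1 and Smg1 were shared with the block. Smg1, a kinase of nonsense-mediated decay, stood at 432, 1305 and 951 CPM in IgG and at 193 to 370 in RNA.

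Some RNAs were higher in 1 IgG library than in the other 14 IgG and RNA libraries, and these were named by the gap to the highest of those 14. In DMSO, beside Kcnq1ot1, they were Insyn2b (8.62 CPM against at most 0.812 elsewhere) and Has3, a hyaluronan synthase (7.11 against at most 1.20). The anti-HuR library of DMSO replicate 2 held similar levels, at 7.02 CPM for Insyn2b, 5.61 for Has3 and 121 for Kcnq1ot1. Insyn2b and Has3 were chosen by their level in the IgG library of DMSO, so no test is given for them. Kcnq1ot1 was named by the same rule, so the FDR given for it above is no independent evidence. In LPS, beside Fcgr1, they were Csf2, the cytokine GM-CSF (40.7 against at most 19.5), and Zbtb7a (458 against at most 238). For these 3 the gap was 0.94 to 1.11 on the log2 scale of CPM plus 1, and Zbtb7a was far higher in the anti-HuR libraries, at 1106 to 4125 CPM. In LPS+TM7nox, beside Nedd4l, they were Samd15 (81.5 against at most 29.8) and Cacna2d2 (2.44 against at most 0.315).

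Thinned to 2.5 M counts, the IgG libraries held 15872 ± 1739 detected genes (SD, n = 3) against 13323 ± 442 in RNA (n = 12, exact permutation p = 0.008, adjusted 0.0128). The 100 most abundant genes took 33.0 ± 1.2% of IgG counts and 39.8 ± 3.4% of RNA counts (exact permutation p = 0.008), but with mitochondrially encoded genes left out the difference turned to 1.83 percentage points in favour of IgG and did not pass the test (adjusted p = 0.376, exact permutation). Genes absent or nearly absent from total RNA stayed low in IgG. Of 33042 genes with at most 3 counts over the 12 RNA libraries, none reached 5 CPM in an IgG library, and the highest stood at 1.74. Still, 539 of these genes were counted in all 3 IgG libraries. That comparison can show only genes absent at a depth of 254 M RNA counts. The 10 macrophage markers were all tested and none was called (median -0.12), against 14.2% of all genes. With 10 genes, no call is not far from that share. In bulk RNA, fewer cells of a type and less RNA per cell cannot be told apart. Summed T cell markers lay at 3.87 to 14.2 CPM in IgG and 3.55 to 14.3 in RNA, B and plasma cell markers at 3.26 to 6.65 and 0 to 6.58, fibroblast markers at 0.530 to 1.23 and 0 to 0.188, epithelial markers at 0.0816 to 0.614 and 0 to 0.576, and erythroid markers at 0.113 to 1.84 and 0 to 0.218. The highest of each of the last 3 was in IgG of DMSO, and their part in the results was not tested.

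Of 30 cytosolic enzymes and chaperones, 4 were higher and 3 lower (median 0.00), so that 23.3% were called against 14.2% of all genes. Subunits of the chaperonin that folds actin and tubulin, Cct3 (0.60), Cct5 (0.55) and Cct8 (0.53), and the chaperone Hspa8 (0.43) rose, and Fth1, the ferritin heavy chain, fell by 0.69 (SE 0.185, FDR 0.0188). The call of Fth1 was lost without any 1 of the IgG libraries (FDR 0.0605 to 0.152), and that of Cct8 without the IgG library of LPS (0.0717) or of LPS+TM7nox (0.0571). Hspa8 had an adjusted p of 0.127 with the replicate block, 0.0825 to 0.232 without any 1 of the IgG libraries, 0.0515 without RNA LPS replicate 2 and 0.0546 without RNA LPS+TM7nox replicate 4. Of 30 secreted and membrane proteins, none was higher and 4 were lower (median -0.13), which is 13.3% called against 14.2% of all genes. Among those not called were Lpl at 0.11 (FDR 0.753) and Lyz2 at -0.79 (FDR 0.0632). Lyz2 was called in 7 of 25 alternatives, among them without RNA DMSO replicate 1 (FDR 0.0447) and without RNA LPS+TM7nox replicate 1, 3 or 4 (0.0433 to 0.0496). Of 30 actin cytoskeleton genes, 2 were higher and 3 lower (median -0.07), which is 16.7% called against 14.2% of all genes. The lowest was Tmsb10, a small actin-sequestering peptide, at -1.02, whose call was lost without the IgG library of LPS (FDR 0.0506) or of LPS+TM7nox (0.0714).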

How the data were processed

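The authors deposited 1 table of whole-number counts per Ensembl gene for 27 libraries. The submitters' processing notes name FastQC 0.11.9, STAR, HTSeq, DESeq2 and the build GRCm39, without their order. Neither the annotation release nor the strand setting of the counting is stated in the sources used. No molecular identifiers are given, so copies of 1 molecule may count more than once.

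IgG was compared with total RNA by edgeR 4.0.16 in R 4.3.3 (quasi-likelihood F test, two-sided, treatment as covariate, TMM scaling). filterByExpr was applied by assay with a minimum count of 10, and genes were called at FDR under 0.05. Of the 13162 genes kept, 796 did not pass the filter when it was applied by treatment to the RNA libraries alone. Of these 796 genes, 57 were called higher and 0 lower. CPM values were computed from the deposited counts on a common TMM scale for all 27 libraries. Values of single libraries on a log scale use a pseudocount of 0.5 CPM. Simulated counts with known changes were used to test the fit.

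Same-numbered RNA libraries of different treatments deviated together in 12 of 12 pairs (r 0.178 to 0.396), against -0.343 to 0.320 in 36 differently numbered pairs, 5 of them over 0.1. By the rule that every same-numbered pair exceeds 0.1, the numbers were taken to pair the samples. The block fit was run as an alternative. IgG exists for replicate 3 only, and the main fit sets it against RNA of every replicate. Any trait of replicate 3 is therefore part of the main difference. No 2 RNA libraries of a treatment agreed within sampling noise (chi-square per gene at least 38.0).

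Coordinates, overlaps and transcript lengths come from GENCODE M39 on GRCm39, which held 93.2% of the table's gene IDs. Sequences are from the same annotation. Genes were named from a panel, the largest changes in each direction without overlap of the groups and with a mean of at least 5 CPM, the largest shares of IgG counts, the widest gaps of 1 library, and the 3 most abundant members of each list. The members and lists were chosen with earlier results of these data known. Shares were tested by exact permutation of which library of a treatment is IgG, with a smallest p of 0.008. That test does not use the pairing by replicate number.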

Additional observations from a re-analysis of the deposited data

Results flagged for a closer look

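Samples far from the others of their group were looked for in the 4-library RNA groups over 41 genes and 8 shares, which is 147 checks, and 9 stood apart by Dixon's criterion. Chance alone marks about 1 in 20 such groups. In RNA LPS+TM7nox replicate 1, Il1b stood at 240 CPM against 462 to 505 in the other 3, Ndufc1 at 81.3 against 31.2 to 39.2, and long noncoding RNAs took 0.424% of counts against 0.335 to 0.343%. In RNA DMSO replicate 1, the library with the fewest counts, Ndufc1 stood at 142 CPM against 40.99 to 51.7, and pseudogenes took 1.01% against 0.640 to 0.695%. In RNA DMSO replicate 2, Malat1 stood at 2135 CPM against 1089 to 1150, and Cacna2d2 at 0.0339 against 0 in the others. In RNA LPS replicate 1, mt-Rnr1 stood at 31934 CPM against 54481 to 58806. In RNA LPS replicate 3, Cacna2d2 stood at 0.0914 against 0. Each IgG group holds 1 library and could not be examined in this way.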

How the results depend on the processing

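All 3 IgG libraries carry the number 3, so the spread between IgG replicates of a treatment was not measured, and the LPS+TM7nox IgG library is the shallowest of the 3. Of 37 called genes chosen by the naming rule, 25 stayed called in the same direction in every alternative run for them. That was 25 alternatives, or 24 where an alternative left the gene out or did not test it. Another 12 lost the call in at least 1, and 0 changed sign. The count includes Has3, Insyn2b and Kcnq1ot1, named through 1 IgG library. It leaves out genes given above for other reasons, many of which also lost calls as stated there. Rpl8 (-0.46, FDR 0.0128) lost its call without the IgG library of DMSO (0.0626) or of LPS+TM7nox (0.101). The replicate block changed the call of Gm23935 (FDR 0.0612, and 0.0332 with the block) and, as given in the report, of Cox6c, H4c4, Hspa8, Nktr, Rn7sk and mt-Nd6, besides Has3 and Insyn2b, which were chosen by their level in 1 IgG library. It called 1664 genes in all, 799 higher and 865 lower, of which 1291 were among the 1874. The number of genes called, 1874, became 3079 with replicate 3 only, 2812 with no filter on low counts and 2544 with DESeq2, and leaving out 1 library gave 691 to 2404. With the 4 NEDD4-family genes left out, an alternative added after the data were seen, it was 1879. The interaction for LPS against DMSO gave 4 genes with the replicate block, 6 with DESeq2 and 0 to 0 when 1 RNA library was left out.

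For shares of counts, in percentage points of IgG minus RNA, replicate 3 only gave -13.2 for mitochondrial RNA, -0.748 for ribosomal protein mRNA, -0.127 for histones, 0.257 for long noncoding RNA, 0.201 for pseudogenes and -6.79 for the 100 most abundant genes, and 2357 for genes detected. That design has too few libraries to pass a test. Leaving out 1 library gave -12.6 to -11.0, -0.664 to -0.559, -0.174 to -0.0696, 0.0531 to 0.365, 0.199 to 0.241 and -7.49 to -6.41 for the same shares, and 1726 to 3416 genes detected. Without any 1 IgG library the adjusted p of every share was 0.0533 or more, since fewer arrangements remain. Small structured RNA ranged from -0.541 to -0.235. With mitochondrially encoded genes left out of the total, long noncoding RNA gave 0.190, pseudogenes 0.106 and the 100 most abundant genes 1.83. The difference by coding length was 0.535 with replicate 3 only and 0.534 to 0.592 without 1 library, both added after the data were seen.

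Among named genes not called, the sign changed with library size alone for Actb (0.0600), Zfas1 (0.0376) and Eef1a1 (0.0751), with the replicate block for Vaultrc5 (0.20) and Tln1 (-0.0461), and with replicate 3 only for Vaultrc5 (0.35) and Tln1 (-0.0260). Without 1 library it ranged from -0.20 to 0.0801 for Actb, from -0.0357 to 0.20 for Lpl, from -0.72 to 0.0908 for Ccl3 and from -0.0682 to 0.41 for Ptgs2. The sign also changed without the IgG library of DMSO for mt-Nd4 (0.12) and Fcgr2b (-0.06), without that of LPS for Smurf2 (-0.0999) and Smurf1 (-0.05, and -0.0034 and -0.0081 without RNA DMSO or RNA LPS replicate 3), and without that of LPS+TM7nox for mt-Nd2 (-0.17) and mt-Nd5 (-0.02). The cause of these changes was not tested.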
